A study of Mus musculus with 4 samples.

Results

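The endoplasmic reticulum (ER) folds secreted and membrane proteins, and the genes described here are its chaperones, its disposal machinery and the stress pathways that control both. The set was chosen by name: 35 genes of the unfolded protein response and of the ATF4 pathway, out of 23996 genes in the authors' deposited table. All 35 were found there, 34 had been tested between genotypes and 1 (Chac1) had not.

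The samples were splenic follicular helper T (TFH) cells, T cells that give help to germinal centre B cells. They carried CD4, CD44, CXCR5 and PD-1 at the sort, which was done 7 days after mice received ovalbumin (OVA) in alum. Etv5 cKO mice were Etv5f/f;Cd4-Cre, and WT mice were Etv5f/f, so both genotypes carried the floxed allele of Etv5, which encodes an ETS family transcription factor. Cd4-Cre is active from thymocyte stages onwards, so deletion is not limited to TFH cells, and an effect of Cre itself cannot be told apart from the loss of Etv5. Each genotype had 2 libraries. The labels give no age or sex of the mice and do not say whether the 2 libraries came from separate mice, so p-values may reflect technical spread.

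The authors' deposited table holds 1 FPKM value per gene and genotype (fragments scaled to transcript length and to sequencing depth, so that levels can be compared between genes). No value per library was used here, so no SD could be computed, and sequencing depth is unknown. In bulk RNA, fewer cells of a type and less RNA per cell cannot be told apart. The target gene Etv5 stood at 2.12 FPKM in Etv5 cKO and 5.24 FPKM in WT, and it fell in the authors' Cuffdiff test (log2 fold change -1.31, adjusted p = 0.0181). All 7 TFH markers were present, from 7.78 FPKM for Ascl2 to 223 FPKM for Sh2d1a in Etv5 cKO and from 10.6 to 226 FPKM for the same genes in WT. All 7 had lower values in Etv5 cKO, beside 51.1% of all tested genes, and 0 of 7 were called at an adjusted p below 0.05. Il21 alone of the 7 had an unadjusted p below 0.05 (log2 fold change -0.41, the authors' Cuffdiff p = 0.0197).

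ER stress is sensed by 3 membrane proteins. IRE1 (gene Ern1) splices the mRNA of the transcription factor XBP1, ATF6 is cut in the Golgi to release a transcription factor, and PERK (gene Eif2ak3) phosphorylates the translation factor eIF2. Phosphorylated eIF2 slows translation in general and favours translation of ATF4, which starts the integrated stress response, a programme that other kinases can also start when amino acids or haem run short. XBP1 and ATF6 raise ER chaperones and ER-associated degradation (ERAD), and lymphocytes that secrete large amounts of protein, above all plasma cells, depend on this arm. XBP1 splicing, ATF6 cleavage, eIF2 phosphorylation and ATF4 translation are not measured by a gene's FPKM.

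Many of these genes are known for a promoter element, the ER stress response element (ERSE). It is spelled CCAAT, then 9 bases of any kind, then CCACG, and the factor NF-Y binds the first part and ATF6 or XBP1 the last. Promoter windows of 300 bases (250 before and 50 after the annotated start, RefSeq, GRCm38.p6) were available for 30 of the 35 genes, and windows for Atf6, Derl1, Hyou1, Manf and Ppp1r15b were not used. An exact ERSE on either strand was found in 9 of these 30 genes, against 37 of 27025 genes (0.137%) over all windows. The set was drawn up from textbook targets, so this share describes how it was chosen. The matches shown are matches of letters only, and binding of ATF6 or XBP1 to them was not tested. Capitals mark the fixed letters of the motif, and each line runs 5′ to 3′ on the gene's own strand, so that a motif lying the other way round reads CGTGG first and ATTGG last.

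Hspa5 (chr2:34772019-34772049, plus strand): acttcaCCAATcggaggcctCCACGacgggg
Hsp90b1, distal (chr10:86705632-86705662, minus strand): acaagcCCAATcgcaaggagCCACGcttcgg
Hsp90b1, proximal (chr10:86705527-86705557, minus strand): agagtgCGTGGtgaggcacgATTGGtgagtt
Dnajc3 (chr14:118937821-118937851, plus strand): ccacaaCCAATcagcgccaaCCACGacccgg
Creld2 (chr15:88819514-88819544, plus strand): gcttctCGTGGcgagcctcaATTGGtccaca
Calr (chr8:84847069-84847099, minus strand): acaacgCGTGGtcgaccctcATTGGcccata
Canx (chr11:50325794-50325824, minus strand): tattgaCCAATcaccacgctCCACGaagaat
Pdia6 (chr12:17266485-17266515, plus strand): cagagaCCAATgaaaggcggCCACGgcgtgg
Syvn1 (chr19:6046526-6046556, plus strand): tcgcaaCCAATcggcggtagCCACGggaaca
Derl3 (chr10:75893236-75893266, plus strand): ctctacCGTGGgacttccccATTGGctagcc

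The sites began between 212 and 44 bases before the annotated start, and Hsp90b1 held 2 of them in opposite orientations. The related element ERSE-II (ATTGG, 1 base of any kind, CCACG) was matched exactly in 2 of the 30 genes, against 12 of all 27025 genes (0.0444%). In Herpud1 it began 52 bases before the start, and in Dnajb11 it lay at base 8 of the transcript.

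Herpud1 (chr8:94386371-94386393, plus strand): gcgctgATTGGGCCACGttggac
Dnajb11 (chr16:22857846-22857868, plus strand): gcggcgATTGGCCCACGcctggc

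The UPRE core TGACGTGG, an XBP1 and ATF6 element, and TGATGNAAT, the C/EBP-ATF element bound by ATF4, had no exact match in the 30 windows, on either strand. Over all 27025 genes they were matched in 193 genes (0.714%) and 293 genes (1.08%). These letters are therefore not in these windows, which says nothing of variant sites or sites farther away. No gene of the 30 held matches to 2 different motifs of the 4, so no overlap between motifs was possible. The whole window of Hspa5 shows where the ERSE lies relative to the start, which follows base 250 (chr2:34771840-34772139, plus strand).

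Hspa5 promoter window: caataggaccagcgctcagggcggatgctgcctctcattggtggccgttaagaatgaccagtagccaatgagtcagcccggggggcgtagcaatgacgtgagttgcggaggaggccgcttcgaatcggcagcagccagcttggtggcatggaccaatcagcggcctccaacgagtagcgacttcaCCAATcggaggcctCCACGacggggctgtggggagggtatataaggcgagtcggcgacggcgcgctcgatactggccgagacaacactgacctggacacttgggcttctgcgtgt

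**Figure D1:**
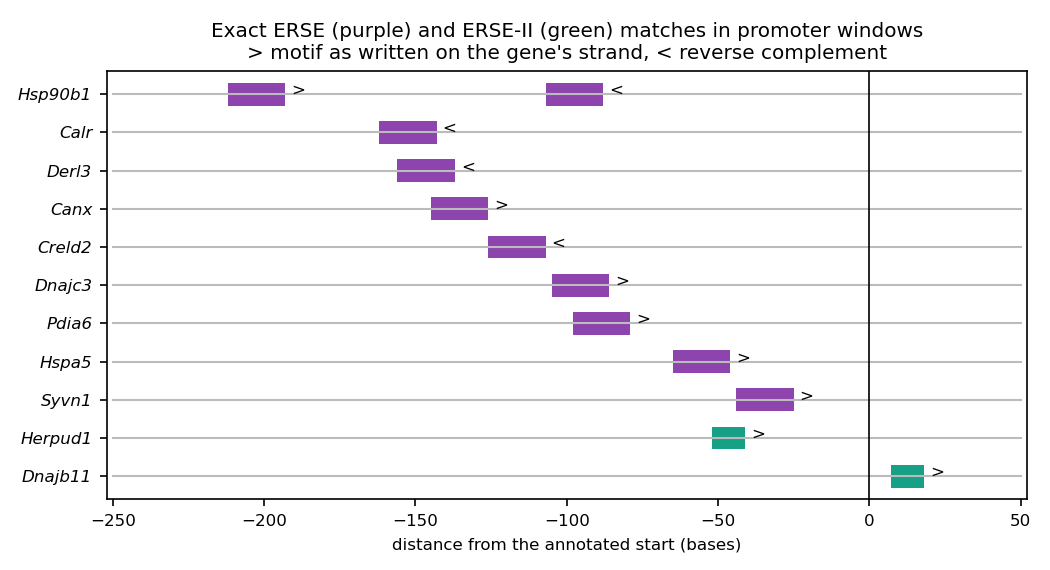
Position of exact ERSE (purple) and ERSE-II (green) matches in the promoter windows of 11 genes, in bases from the annotated start (vertical line). Hsp90b1 has 2 ERSE sites, and the sites of the 9 ERSE genes begin between 212 and 44 bases before the start.

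The question of the comparison was whether this machinery differs between Etv5-deficient and WT TFH cells. In the authors' deposited Cuffdiff test no gene of the set passed: 0 of the 34 tested genes had an adjusted p below 0.05, against 0.346% of all 11569 tested genes (40 genes), of which 0.104% were called higher and 0.242% lower in Etv5 cKO. At an adjusted p below 0.1 the count was again 0 of 34, against 0.354% of all tested genes. At an unadjusted p below 0.05 the count was also 0 of 34, against 2.4% of all tested genes. No other tool was run, since the table holds no value per library. A count of 0 of 34 lies near these background shares. The smallest p of the set in the authors' deposited table was 0.177 (Sec61b), and the adjusted p of each tested gene was 0.999.

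The values of the 2 genotypes lay close together. Of the 34 tested genes 16 were higher and 18 lower in Etv5 cKO (14 and 19 after quantile normalization), and the median of their log2 fold changes was -0.012, beside -0.0033 over all tested genes. The range ran from -0.19 (Atf4) to 0.41 (Asns). Of the 34, 31 (91.2%) lay within 0.2 of no difference on the log2 scale, beside 78.9% of all tested genes. At a mean level of at least 5 FPKM, 27 of 28 genes of the set (96.4%) and 88.9% of all 8647 tested genes lay within 0.2. Summed over the 35 genes, the level was 2084 FPKM in Etv5 cKO and 2127 FPKM in WT, a ratio of 98.0%. The same ratio summed over all genes of the table was 102.2%.

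The table's own resolution limits what this shows. The smallest absolute log2 fold change that was called anywhere in it was 0.68, and the smallest at an unadjusted p below 0.05 was 0.35. No difference below 0.68 was called for any gene, so the absence of calls in the set does not show that the genotypes are alike. Among the tested genes of the set, Asns alone had a value beyond 0.35.

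**Figure D2:**
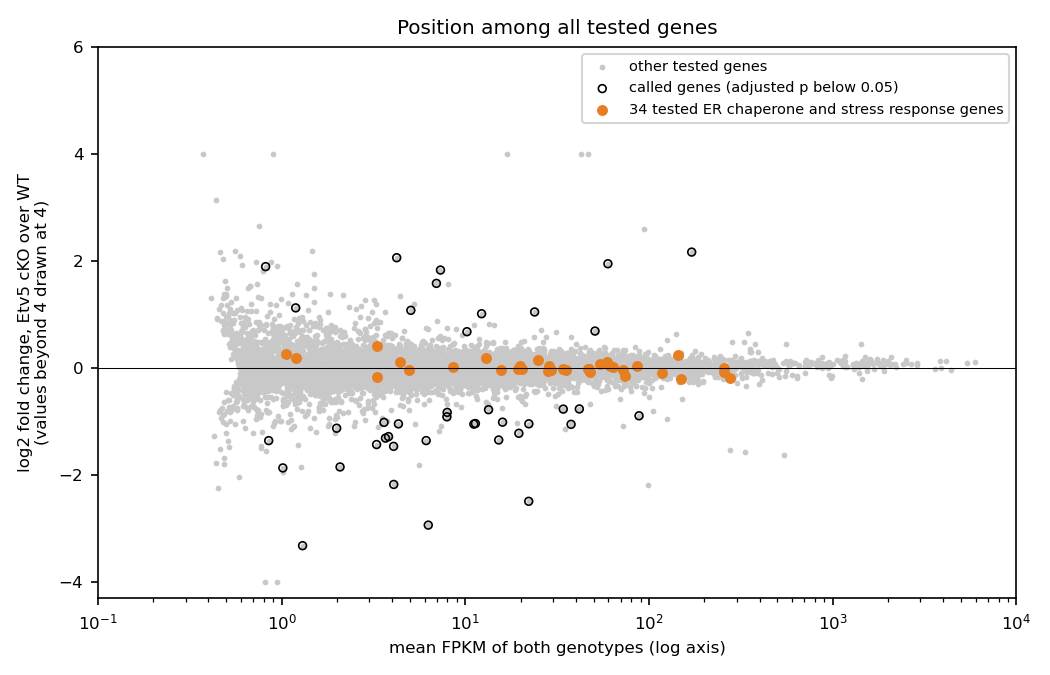
Log2 fold change of Etv5 cKO over WT (vertical axis, values beyond 4 drawn at 4) against mean FPKM (horizontal log axis) for the tested genes. The 34 tested genes of the set (orange) lie between -0.19 and 0.41, and none is among the 40 called genes (circled).

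By level, the tested genes of the set lay between the 6.53th percentile of all tested genes (Derl3) and the 97.9th (Hspa5). The mean of both genotypes was at least 100 FPKM for 6 genes, 10 to 100 FPKM for 21, 1 to 10 FPKM for 7 and below 1 FPKM for Chac1. The order of the 35 levels was nearly the same in both genotypes: 22 genes held the same rank, and the largest shift was 2 places. Hspa5, Calr and Pdia3 led, each at or above the 97.8th percentile of tested genes, and Atf4, Sec61b and Hsp90b1 followed. Chac1, Derl3 and Trib3 closed the order. Neighbours in this order cannot be separated by a test, since no spread between libraries is given.

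**Figure D3:**
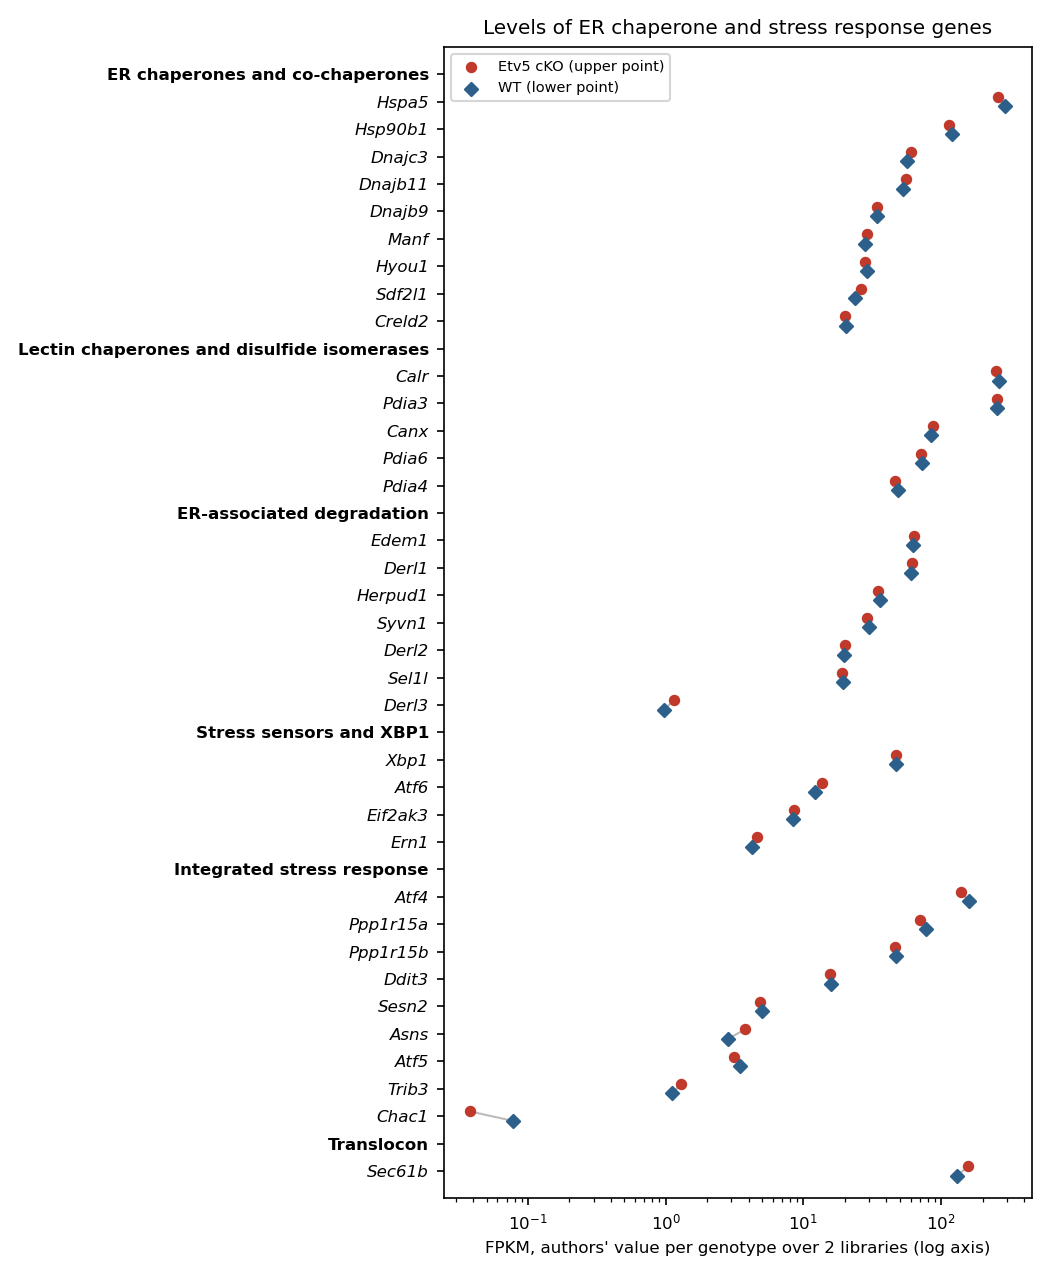
FPKM per gene (log axis) in Etv5 cKO (red circle, upper) and WT (blue diamond, lower), grouped by role and ordered by level, 1 authors' value per genotype over 2 libraries. The paired points lie close together for most genes, such as Hspa5 (259 and 293 FPKM) and Ern1 (4.58 and 4.23 FPKM). They part most for Asns and for Chac1, which was not tested, and less for Derl3 (1.16 and 0.968 FPKM) and Sec61b (157 and 131 FPKM).

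Among the 9 ER chaperones and co-chaperones 4 were higher and 5 lower in Etv5 cKO, 0 of 9 were called by Cuffdiff, and their median was -0.0090 on the log2 scale. Hspa5 encodes BiP, the HSP70 of the ER lumen that also holds the stress sensors inactive, and lies on mm10 chromosome 2 from 34772090 to 34776529. It stood at 259 FPKM in Etv5 cKO and 293 FPKM in WT (log2 fold change -0.18, the authors' p = 0.354). That was the widest gap in FPKM of any gene in the set (-33.6 FPKM, Etv5 cKO minus WT), in the most abundant gene. Hsp90b1, the ER form of HSP90 (GRP94), stood at 114 FPKM in Etv5 cKO and 121 FPKM in WT (log2 fold change -0.086). Both of these abundant chaperones were thus slightly lower in the mutant without passing the test.

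The 3 J proteins direct substrates to BiP or tune its cycle. Dnajc3 (p58IPK, an ER J protein) stood at 60.9 FPKM in Etv5 cKO and 56.6 FPKM in WT. Dnajb11 (ERdj3) stood at 55.8 FPKM in Etv5 cKO and 53.1 FPKM in WT. Dnajb9 (ERdj4, which returns BiP to IRE1) stood at 34.1 FPKM in Etv5 cKO and 34.3 FPKM in WT. The log2 fold changes of these J proteins lay between -0.0090 and 0.11 in the authors' deposited table.

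Sdf2l1, a partner of ERdj3, had the largest positive value of the group, 26.3 FPKM in Etv5 cKO and 23.6 FPKM in WT (log2 fold change 0.16, the authors' p = 0.443). Manf, a secreted ER stress protein that binds BiP, stood at 28.8 FPKM in Etv5 cKO and 28.1 FPKM in WT. Hyou1 (GRP170, a nucleotide exchange factor of BiP) stood at 27.8 FPKM in Etv5 cKO and 28.8 FPKM in WT. Creld2, an ER stress-inducible protein of the lumen, stood at 20.2 FPKM in Etv5 cKO and 20.4 FPKM in WT. None of these 4 differed by as much as 3 FPKM.

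The lectin chaperones and disulfide isomerases were the tightest of the larger groups: all 5 lay within 0.1 on the log2 scale, 2 higher and 3 lower in Etv5 cKO (1 and 3 after quantile normalization), with a median of -0.029 and 0 of 5 called. Calr (calreticulin, soluble) and Canx (calnexin, in the membrane) bind glycoproteins that carry a single terminal glucose. Calr stood at 251 FPKM in Etv5 cKO and 263 FPKM in WT. Canx stood at 86.8 FPKM in Etv5 cKO and 84.8 FPKM in WT. Pdia3 (ERp57), the disulfide isomerase that works with both lectins and with MHC class I loading, stood at 256 FPKM in Etv5 cKO and 254 FPKM in WT. Pdia4 and Pdia6 are further isomerases that act with BiP. Pdia6 stood at 71.0 FPKM in Etv5 cKO and 72.5 FPKM in WT. Pdia4 stood at 46.4 FPKM in Etv5 cKO and 48.7 FPKM in WT.

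Of the 7 ERAD genes 4 were higher and 3 lower in Etv5 cKO, with a median of 0.018 on the log2 scale and 0 of 7 called. Quantile normalization gave 3 higher and 4 lower and a median of -0.0052. ERAD recognizes misfolded proteins, moves them back to the cytosol and ubiquitinates them. Edem1, which marks misfolded glycoproteins for this route, stood at 63.8 FPKM in Etv5 cKO and 63.0 FPKM in WT (log2 fold change 0.018, and -0.0052 after quantile normalization). Syvn1 encodes the ubiquitin ligase HRD1, and its adaptor is Sel1l. Syvn1 stood at 29.0 FPKM in Etv5 cKO and 29.8 FPKM in WT. Sel1l stood at 19.2 FPKM in Etv5 cKO and 19.5 FPKM in WT. Herpud1, a stress-induced membrane partner of HRD1, stood at 35.0 FPKM in Etv5 cKO and 35.7 FPKM in WT.

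The derlins, membrane proteins of the ERAD channel, spanned a wide range of levels. Derl1 stood at 61.8 FPKM in Etv5 cKO and 60.2 FPKM in WT. Derl2 stood at 20.1 FPKM in Etv5 cKO and 19.6 FPKM in WT. Derl3, which is typical of secretory cells such as plasma cells, stood at 1.16 FPKM in Etv5 cKO and 0.968 FPKM in WT. Its log2 fold change of 0.26 (the authors' p = 0.609) was 0.13 with a pseudocount of 1 FPKM and 0.045 with 5. The order Derl1, Derl2, Derl3 held in both genotypes.

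The 3 sensors were transcribed at low to moderate levels and XBP1 well above them. Atf6 stood at 13.7 FPKM in Etv5 cKO and 12.1 FPKM in WT (log2 fold change 0.18, the authors' p = 0.307). Eif2ak3 stood at 8.58 FPKM in Etv5 cKO and 8.47 FPKM in WT. Ern1 stood at 4.58 FPKM in Etv5 cKO and 4.23 FPKM in WT. XBP1 mRNA is the substrate of IRE1. Xbp1, on mm10 chromosome 11 from 5520641 to 5525993, stood at 46.7 FPKM in Etv5 cKO and 47.2 FPKM in WT (log2 fold change -0.016). Its spliced and unspliced mRNA are counted together in this value. Among the sensors and XBP1, 3 were higher, 1 lower and 0 of 4 called, and the median was 0.068 on the log2 scale.

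The integrated stress response held the widest spread, with 2 of its 8 tested genes higher and 6 lower in Etv5 cKO, a median of -0.028 on the log2 scale and 0 of 8 called. Atf4, the central transcription factor of the pathway (mm10 chromosome 15, 80255184 to 80257545), stood at 140 FPKM in Etv5 cKO and 160 FPKM in WT. Its log2 fold change of -0.19 was the lowest of the tested genes of the set (the authors' p = 0.272). Ddit3 (CHOP), a factor that acts with ATF4 in prolonged stress, stood at 15.5 FPKM in Etv5 cKO and 15.8 FPKM in WT. Ddit3 shares its deposited locus with Mars, the methionyl-tRNA synthetase.

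Ppp1r15a and Ppp1r15b encode GADD34 and CReP, the stress-induced and the constitutive subunit of the phosphatase that restores eIF2. Ppp1r15a stood at 70.7 FPKM in Etv5 cKO and 78.2 FPKM in WT (log2 fold change -0.14, the authors' p = 0.482). Ppp1r15b stood at 46.5 FPKM in Etv5 cKO and 47.1 FPKM in WT. The inducible subunit was thus the more abundant in both genotypes.

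Further genes of the pathway that ATF4 is known to raise had low levels and no common direction. Asns, asparagine synthetase, stood at 3.79 FPKM in Etv5 cKO and 2.85 FPKM in WT, the largest log2 fold change of the set at 0.41 (the authors' p = 0.225). With a pseudocount of 5 FPKM the Asns value was 0.16. Trib3, a pseudokinase that feeds back on ATF4 and CHOP, stood at 1.28 FPKM in Etv5 cKO and 1.12 FPKM in WT. Sesn2, a leucine sensor that restrains mTORC1, stood at 4.88 FPKM in Etv5 cKO and 4.97 FPKM in WT. Chac1, which degrades glutathione and is strongly induced when ATF4 is active, was listed at 0.0381 FPKM in Etv5 cKO and 0.0773 FPKM in WT and was not tested. Its deposited log2 fold change of -1.02 was -0.053 with a pseudocount of 1 FPKM and -0.011 with 5.

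Atf5, another ATF factor downstream of eIF2 phosphorylation, stood at 3.13 FPKM in Etv5 cKO and 3.49 FPKM in WT. Its deposited locus is shared by 5 genes, among them Nup62 at 28.4 FPKM in Etv5 cKO and 28.7 FPKM in WT. The Atf5 test score was -0.13 for a log2 fold change of -0.16 in the authors' deposited table (p = 0.870). Ppp1r15a, alone at its locus but at a far higher level, had a score of -0.46 for a log2 fold change of -0.14. Asns, alone at its locus at a level near that of Atf5, had a score of 0.89 for a log2 fold change of 0.41. The parts of the shared locus and of the level in this were not tested.

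Sec61b, the beta subunit of the channel through which new proteins enter the ER, had the lowest p of the set. It stood at 157 FPKM in Etv5 cKO and 131 FPKM in WT, a log2 fold change of 0.25 (the authors' p = 0.177). With pseudocounts, median centring or quantile normalization its value lay between 0.24 and 0.26.

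**Figure D4:**
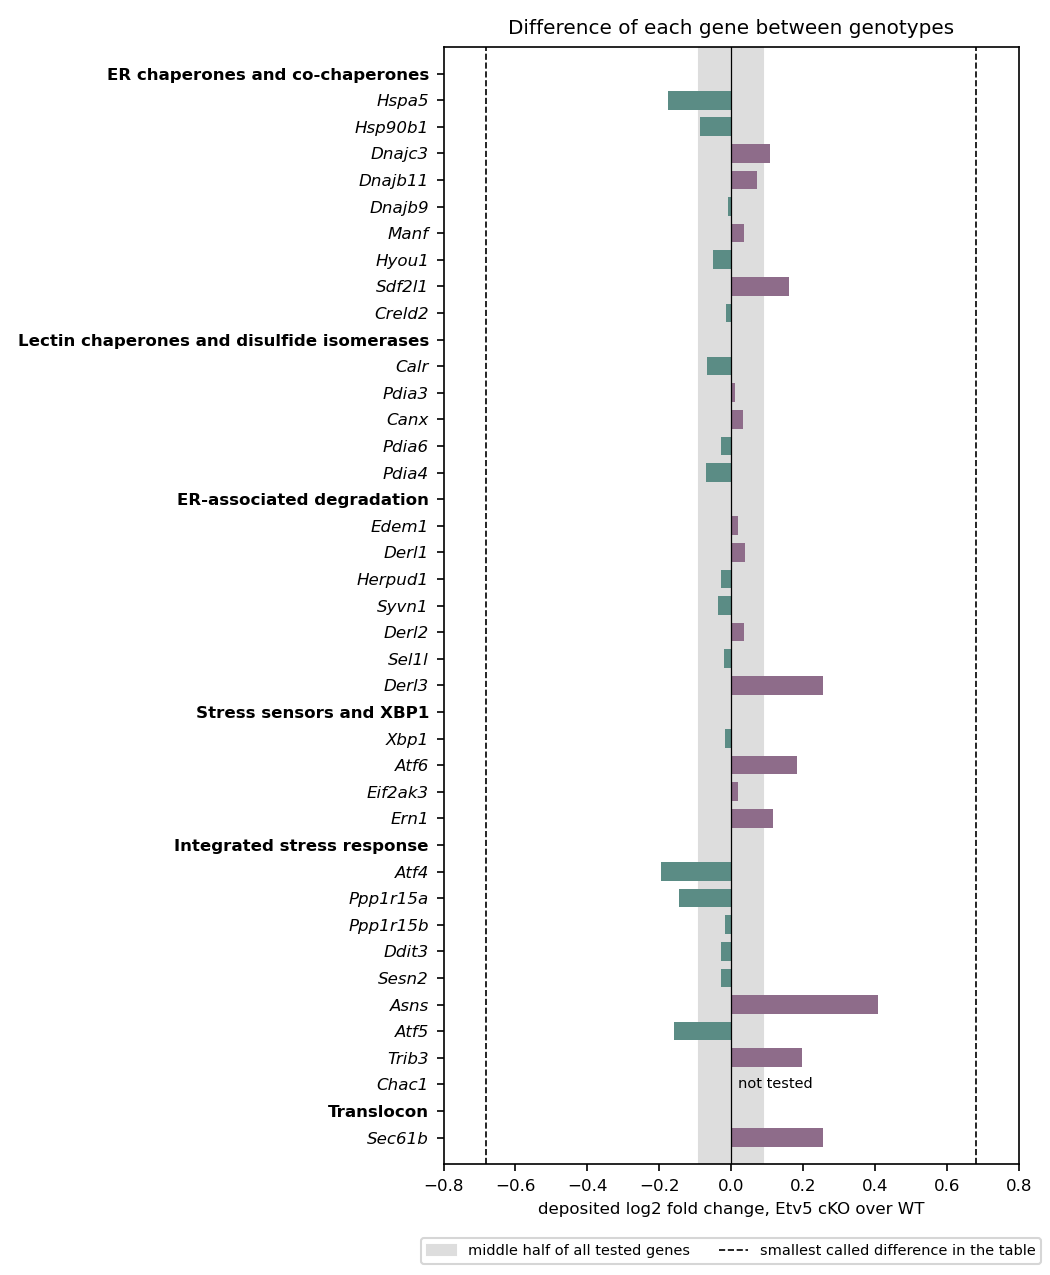
Deposited log2 fold change of Etv5 cKO over WT for the 34 tested genes by role, with no bar for Chac1, which was not tested. Every bar falls inside the dashed lines at the smallest called difference of the table (0.68), Asns reaches 0.41, and the grey band spans the quartiles of all tested genes (-0.088 to 0.088).

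The rest of the translocation machinery was read beside Sec61b. A list of 31 genes for protein translocation, signal peptide cleavage and N-glycosylation had 27 members higher and 4 lower in Etv5 cKO, in a table where 48.8% of the tested genes were higher. The differences were small: the median log2 fold change was 0.059, the highest was 0.20 (Srp9, 93.0 FPKM in Etv5 cKO and 80.8 FPKM in WT), and 0 of 31 were called or had an unadjusted p below 0.05. Dad1, a subunit of the oligosaccharyltransferase that adds N-glycans, was the most abundant at 227 FPKM in Etv5 cKO and 221 FPKM in WT. Sec11c, a catalytic subunit of the signal peptidase, stood at 152 FPKM in Etv5 cKO and 144 FPKM in WT. Krtcap2, another oligosaccharyltransferase subunit, stood at 132 FPKM in Etv5 cKO and 118 FPKM in WT. The other channel subunits Sec61a1 and Sec61g had log2 fold changes of 0.033 and 0.091. The values thus leaned one way without any gene passing the test. The count of 27 higher and 4 lower was the same with both pseudocounts, median centring and quantile normalization.

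Genes of folding, glycan control and degradation outside the set were split, 14 higher and 13 lower of 27 tested (16 and 11 after median centring, 12 and 14 after quantile normalization), and 0 of 27 were called. Their median was 0.0013 on the log2 scale. Among them Vcp, the ATPase that pulls ERAD substrates out of the membrane, stood at 175 FPKM in Etv5 cKO and 171 FPKM in WT. P4hb, the founding protein disulfide isomerase, stood at 97.6 FPKM in Etv5 cKO and 96.8 FPKM in WT. Ganab, a glucosidase that trims N-glycans for the calnexin cycle, stood at 82.8 FPKM in Etv5 cKO and 84.3 FPKM in WT. ER to Golgi transport genes had 5 higher and 4 lower of 9 tested, with a median of 0.0091 and 0 of 9 called. Surf4, a cargo receptor, stood there at 97.4 FPKM in Etv5 cKO and 91.4 FPKM in WT. Kdelr1, a receptor that returns escaped ER chaperones, stood at 47.7 FPKM in Etv5 cKO and 46.5 FPKM in WT. Sar1b, a GTPase of COPII vesicles, stood at 47.1 FPKM in Etv5 cKO and 47.3 FPKM in WT.

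Upstream of ATF4, the list of eIF2 kinases, eIF2 and eIF2B subunits had 9 genes higher and 4 lower of 13, or 10 and 3 after median centring (median log2 fold change 0.088, 0 of 13 called). Eif2s3x, the gamma subunit of eIF2, stood highest at 82.0 FPKM in Etv5 cKO and 72.5 FPKM in WT. Eif2s2, the beta subunit, stood at 57.3 FPKM in Etv5 cKO and 52.6 FPKM in WT. Eif2s1, the alpha subunit that the kinases phosphorylate, stood at 40.2 FPKM in Etv5 cKO and 37.8 FPKM in WT. Eif2ak4, which encodes the amino acid sensor kinase GCN2, had 5.96 FPKM in Etv5 cKO and 6.84 FPKM in WT. The 6 genes listed around ATF6 and IRE1 had 1 higher and 5 lower (median -0.062, 0 of 6 called). They include the factors Creb3 and Creb3l2 and the adaptor Traf2 beside processing enzymes. Rtcb, the ligase that joins XBP1 mRNA after IRE1 cuts it, was their most abundant at 65.4 FPKM in Etv5 cKO and 65.6 FPKM in WT. Mbtps1, a protease that cuts ATF6, stood at 47.3 FPKM in Etv5 cKO and 50.7 FPKM in WT. Traf2, an adaptor bound by IRE1, stood at 28.9 FPKM in Etv5 cKO and 29.9 FPKM in WT. The lowest p of all these lists was 0.101 in the authors' deposited table, for Creb3l2, a membrane-bound factor related to ATF6, at 5.07 FPKM in Etv5 cKO and 6.49 FPKM in WT.

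Downstream, 14 of 23 further ATF4 target genes were tested, with 9 higher and 5 lower in Etv5 cKO, a median of 0.042 on the log2 scale and 0 of 14 called. Ddit4, an inhibitor of mTORC1, was the most abundant at 152 FPKM in Etv5 cKO and 142 FPKM in WT. Slc1a5, a glutamine carrier, stood at 136 FPKM in Etv5 cKO and 141 FPKM in WT. Psat1, an enzyme of serine synthesis, stood at 65.0 FPKM in Etv5 cKO and 61.3 FPKM in WT. Phgdh, the first enzyme of serine synthesis, stood at 66.7 FPKM in Etv5 cKO and 56.8 FPKM in WT (log2 fold change 0.23, the authors' p = 0.191). Of 12 cytosolic aminoacyl-tRNA synthetase genes 10 were higher and 2 lower (median 0.038, 0 of 12 called), and all 12 lay within 0.1. Nars, the asparaginyl-tRNA synthetase, was the most abundant of these at 49.3 FPKM in Etv5 cKO and 47.5 FPKM in WT. Gars, the glycyl-tRNA synthetase, stood at 48.5 FPKM in Etv5 cKO and 46.0 FPKM in WT. Sars, the seryl-tRNA synthetase, stood at 40.7 FPKM in Etv5 cKO and 38.3 FPKM in WT.

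**Figure D5:**
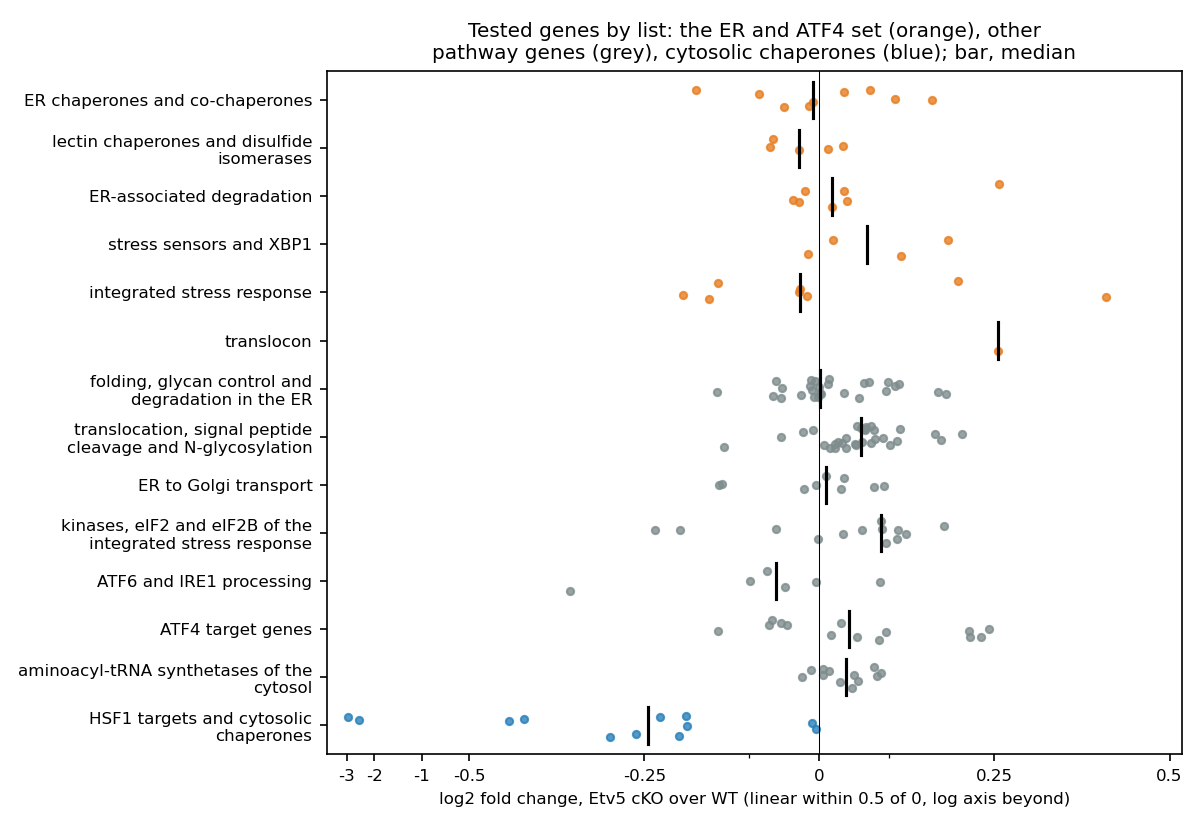
Log2 fold change of Etv5 cKO over WT (horizontal axis, linear within 0.5 of 0 and logarithmic beyond) for the tested genes of each list, with the median as a bar. The ER lists centre near 0, with medians from -0.062 to 0.25 (Sec61b alone), and the 12 HSF1 targets and cytosolic chaperones all lie below 0 with a median of -0.24.

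A list of HSF1 targets and cytosolic chaperones gave other values in the same libraries. All 12 of its genes had lower values in Etv5 cKO under every scaling tried, with a median of -0.24 on the log2 scale. Of these, 4 lay within 0.2 of no difference, and Hspe1 (-0.011) and Hspd1 (-0.0046) hardly differed. Over all tested genes 51.1% were lower. Of the 12, 2 were called, beside 0.346% of all tested genes and 0 of 34 in the ER and ATF4 set. The called pair, Hspa1a (log2 fold change -2.93) and Hspa1b (-2.49), are near-identical, so reads may be split between them. Hspa8, the constitutive HSP70 of the cytosol, stood at 919 FPKM in Etv5 cKO and 1047 FPKM in WT (log2 fold change -0.19), beside -0.18 for Hspa5, its counterpart in the ER. No test of the difference between the 2 sets was made.

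The genes with an exact ERSE, within the set or outside it, were described in the same way. Of the 37 genes with an exact ERSE, 30 were in the table and 16 were tested: 6 were higher and 10 lower in Etv5 cKO, with a median of -0.033 on the log2 scale and 0 of 16 called. The 9 genes of the set with an ERSE had 3 higher and 6 lower (median -0.029), and the 20 tested genes with a window and no ERSE had 10 higher and 10 lower (median 0.0015). Outside the set, 7 ERSE genes were tested, 3 higher and 4 lower in Etv5 cKO. Hnrnpa3 was the most abundant of them, at 137 FPKM in Etv5 cKO and 121 FPKM in WT. Adcy3, Pan2 and Xlr3b had log2 fold changes of 0.017, -0.073 and -0.33. Alg12, a mannosyltransferase of the glycan precursor, stood at 13.7 FPKM in Etv5 cKO and 13.6 FPKM in WT. Ero1b, an oxidase of the disulfide isomerases, stood at 6.82 FPKM in Etv5 cKO and 7.55 FPKM in WT. The lowest log2 fold change was -0.82, for Xlr3a. Xlr3a and Xlr3b belong to a family of near-identical genes, so reads may be split between copies and their values may not be independent.

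Among markers of other cell types, those of myeloid, erythroid and granulocyte cells were all higher in Etv5 cKO. The tested B cell and plasma cell markers went both ways, with 0 called. All 10 myeloid markers were higher in Etv5 cKO (summed level 153 FPKM in Etv5 cKO and 109 FPKM in WT), and 1 of them was called. The 5 erythroid markers summed to 285 FPKM in Etv5 cKO and 59.7 FPKM in WT, with 4 called. The 5 granulocyte markers summed to 21.7 FPKM in Etv5 cKO and 9.89 FPKM in WT, with 1 called. Over all tested genes 0.104% were called higher in Etv5 cKO. The 6 genes listed as plasma cell markers summed to 66.8 FPKM in Etv5 cKO and 71.2 FPKM in WT, most of it from Jchain and Irf4. Of the 5 tested, 2 were higher and 3 lower in Etv5 cKO. Irf4 (24.1 FPKM in Etv5 cKO, 27.1 in WT) and Prdm1 (6.05 and 6.91) were lower, and Mzb1 (2.45 and 2.22) was higher. Bulk values do not tell which cells made these transcripts, so this sum cannot be assigned to plasma cells. Whether it follows the number of plasma cells was not tested. Jchain, the joining chain of secreted antibodies, stood at 33.2 FPKM in Etv5 cKO and 34.1 FPKM in WT. Sdc1 (CD138) stood at 0.821 FPKM in Etv5 cKO and 0.817 FPKM in WT. The 7 B cell markers summed to 18.2 FPKM in Etv5 cKO and 19.0 FPKM in WT. No marker of these 5 lists was at 0. Tnfrsf17, the lowest plasma cell marker, stood at 0.194 FPKM in Etv5 cKO and 0.0363 FPKM in WT. The 7 TFH markers summed to 839 FPKM in Etv5 cKO and 919 FPKM in WT. The 5 T cell markers summed to 2107 FPKM in Etv5 cKO and 2231 FPKM in WT. The part of these cell types in the values of the ER genes was not tested.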

How the data were processed

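Messenger RNA of 2 Etv5 cKO and 2 WT libraries was selected by poly(A) and prepared with a kit that keeps strand, per the labels. Tools and build were TopHat2 (2.0.13), Cuffdiff (2.2.0) and mm10, per the submitters' processing notes. Which annotation, strand setting and normalization were used is not stated in the sources. Per the file headers, the deposited table is a Cuffdiff gene comparison of 2 conditions, with the libraries of a genotype combined. For each gene it lists the authors' FPKM per genotype, the log2 fold change of Etv5 cKO over WT without a pseudocount, and the fold ratio (larger over smaller FPKM). It also lists the authors' test score with its p-value and the adjusted p. Depth is unknown, so no interval or detection limit was computed. The table has 1 empty line, not analysed here.

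From these values gene lists were counted with the deposited Cuffdiff call (adjusted p below 0.05 over all tested genes). The members and lists were chosen with earlier results of these data known. Of 216 listed symbols 216 were found, 8 through RefSeq synonyms. All genes of the set are named, and for each other pathway list the genes with an unadjusted p below 0.05 (there were 0) and the 3 of highest mean FPKM; further genes, and those among ERSE genes, cytosolic chaperones and markers, were named after their values were seen. Start positions are the deposited start plus 1. Motifs were searched on both strands of RefSeq windows (GRCm38.p6), and for 10 of 11 genes with a site bases after the annotated start were found in a GENCODE M21 transcript. The adjustment, the normalization and the motif search were checked on simulated data. Python 3.11.15, pandas 2.3.3, numpy 2.4.6, scipy 1.17.1 and matplotlib 3.10.9 were used. Alternatives were pseudocounts of 1 and 5 FPKM, median centring, quantile normalization, other thresholds and filters.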

Additional observations from a re-analysis of the deposited data

How the results depend on the processing

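The count of called genes in the set was 0 of 34 at an adjusted p below 0.05 and stayed 0 at an adjusted p below 0.1, at an unadjusted p below 0.05, with p-values adjusted over every listed gene, at a mean of at least 5 FPKM and at an absolute log2 fold change of at least 0.5. The median log2 fold change was -0.012 as deposited. It lay between -0.015 (mean of at least 5 FPKM) and -0.0048 (quantile normalization) under pseudocounts of 1 and 5 FPKM, median centring, quantile normalization and both filters. Of the tested genes, Edem1 alone changed sign under these scalings, to -0.0052 after quantile normalization, and Pdia3 came to 0. Asns, Derl3 and Trib3 shrank by more than 0.1 with a pseudocount of 5 FPKM, as did Derl3 with 1. Chac1, not tested, had -1.02 without a pseudocount, -0.053 with 1 FPKM and -0.011 with 5. No paired analysis was possible because the table holds 1 value per genotype; for the same reason leaving out each library was not run.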

Other observations

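Of the 35 genes, 7 share their deposited locus with another gene. The Cuffdiff score per unit of log2 fold change was 0.83 for Atf5, 1.78 for Ddit3, 2.73 for Derl2, 3.36 for Syvn1, 3.90 for Pdia4 and 3.93 for both Dnajb11 and Pdia6. Another gene at the locus was tested for Atf5, Ddit3, Derl2 and Syvn1, and none for Pdia4, Dnajb11 and Pdia6.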
